A study of Mus musculus with 30 samples.

Results

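The peaks described here are stretches of open chromatin around 4 endoderm genes, Sox17, Foxa2, Gata6 and Cxcr4, in mouse cells. They are all peaks of the deposited table of epiblast stem cells (EpiSCs) and definitive endoderm (DE) whose start lies within 500 kb of an anchor start in mm10. The anchors are chr1:4496449 for Sox17, chr2:148040694 for Foxa2, chr18:11052262 for Gata6 and chr1:128592188 for Cxcr4. This gave 300 of 158917 peaks, with 55 around Sox17, 93 around Foxa2, 73 around Gata6 and 79 around Cxcr4. Each anchor is a peak that had been picked earlier from the same DE and EpiSC libraries for its small p-value near its gene. The rise of the 4 anchor peaks in DE is therefore a description and supports nothing.

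Accessibility was measured by ATAC-seq, in which a transposase cuts open chromatin, in 4 EpiSC and 4 DE libraries of the inbred mouse strain C57BL/6 (B6). EpiSCs, pluripotent cells like those of the late epiblast, grew on feeder cells with Fgf2, ActivinA and the Wnt inhibitor NVP-TNKS656. DE was made from them with CHIR99201 (spelled as in the labels) and ActivinA for 16 h, then with ActivinA and LDN193189 for 24 h, while the labels give 46 h in all. DE cells were sorted with magnetic beads for the CXCR4 protein, so the Cxcr4 gene is tied to how the DE samples were selected, and no such sort is given for EpiSCs. EpiSCs were lifted with collagenase to leave the feeder cells behind. The strains PWK/PhJ and DBA were measured by ATAC-seq as EpiSCs only.

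Definitive endoderm is the germ layer that forms the gut tube, liver, pancreas and lung. Sox17, Foxa2 and Gata6 encode transcription factors that act early in its formation. Cxcr4 encodes the receptor of the chemokine Cxcl12 and is commonly used as a surface marker of this cell type. Genes of this kind are usually controlled by enhancers spread over long distances on either side, and an enhancer that becomes active is usually also opened to the transposase. An ATAC-seq peak marks open chromatin and not, by itself, an enhancer or its target gene.

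A set of 4 start regions inside the windows shows where a deposited peak overlaps a gene start, at 2 of them with a peak that rose in DE and at 2 with a peak that did not pass the test. It is a description of these regions only. Of the 4 anchor genes, Foxa2 and Cxcr4 matched the RefSeq promoter table (GRCm38.p6), and Sox17 and Gata6 did not. Each sequence is the 250 bases before an annotated start, read 5′ to 3′ on the minus strand, with capitals for the bases inside a deposited peak. Whether the peak starts count from 0 or 1 is not stated, so the edge of the capitals may be off by 1 base. The Cxcr4 region (chr1:128592300-128592549) holds 34 bases of a peak that did not pass the test, and the first region of the long non-coding RNA gene 9030622O22Rik (chr2:148040514-148040763) holds 70 bases of the Foxa2 anchor peak. The inner start of 9030622O22Rik (chr2:147985419-147985668) holds 38 bases of a peak that rose in DE. The start of Mcm6 (chr1:128359706-128359955), a replication helicase gene in the Cxcr4 window, holds 172 bases of a peak that did not pass the test.
Cxcr4: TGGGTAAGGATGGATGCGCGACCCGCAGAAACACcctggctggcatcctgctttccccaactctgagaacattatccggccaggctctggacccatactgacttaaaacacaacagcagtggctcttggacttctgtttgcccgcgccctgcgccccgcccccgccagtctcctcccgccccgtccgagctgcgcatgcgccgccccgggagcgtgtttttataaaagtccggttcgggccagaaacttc
9030622O22Rik: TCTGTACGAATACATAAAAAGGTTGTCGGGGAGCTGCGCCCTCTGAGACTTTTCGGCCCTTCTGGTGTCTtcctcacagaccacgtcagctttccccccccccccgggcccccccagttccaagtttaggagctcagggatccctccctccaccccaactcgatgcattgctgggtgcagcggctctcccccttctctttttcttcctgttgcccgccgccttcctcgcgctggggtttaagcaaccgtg
9030622O22Rik, inner start: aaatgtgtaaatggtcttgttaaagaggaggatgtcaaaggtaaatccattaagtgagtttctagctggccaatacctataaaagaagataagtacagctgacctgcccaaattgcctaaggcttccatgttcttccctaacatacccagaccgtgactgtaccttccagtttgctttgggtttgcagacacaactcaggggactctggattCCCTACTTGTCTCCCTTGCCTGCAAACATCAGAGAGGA
Mcm6: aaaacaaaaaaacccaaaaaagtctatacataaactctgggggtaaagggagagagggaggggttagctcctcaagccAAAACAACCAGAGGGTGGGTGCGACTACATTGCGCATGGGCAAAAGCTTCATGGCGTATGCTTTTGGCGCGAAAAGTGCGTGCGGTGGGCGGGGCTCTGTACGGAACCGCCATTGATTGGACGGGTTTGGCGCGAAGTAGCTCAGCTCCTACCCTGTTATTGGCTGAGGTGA
The words TGTTTAC and TGTTTGC, found in sites of Fox factors, were searched on both strands and occur in 7.29% of 32851 listed promoter windows of the same length. There is 1 match in the Cxcr4 region and 1 in the inner start of 9030622O22Rik. The GATA words AGATAA and TGATAA occur in 16.6% of the windows and once in the inner start of 9030622O22Rik. The Sox words ACAATG and ACAATA (17.4% of windows) and the Oct word TGCAAAT (3.56% of windows) are in none of the 4 sequences. A match of letters is a description and not a binding site.

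RNA of the same 2 cell states, measured in 5 EpiSC and 4 DE samples, matched the labels in the endoderm genes and in part in the EpiSC genes. The ATAC-seq libraries themselves were not checked in this way. Total ATAC counts in peaks ranged from 3751526 to 9311622 per library, and 4.39% to 9.26% of them lay on the mitochondrial genome in DE against 6.92% to 13.6% in EpiSCs. Of 14 tested definitive endoderm genes, 13 rose in DE and 0 fell, and their list summed to between 8803 and 20670 CPM (counts scaled to a common library size) in DE against 532 to 1442 in EpiSCs. Of 7 EpiSC genes, 4 fell (Pou5f1, Nanog, Sox2 and Utf1), 2 rose (Fgf5 and Otx2) and Dnmt3b did not pass the test. Their list summed to overlapping values, 2984 to 3981 CPM in DE and 2753 to 4096 CPM in EpiSCs. Of 8 feeder fibroblast genes, 7 fell, and the list summed to between 77.1 and 258 CPM in DE and between 57.8 and 2448 CPM in EpiSCs, with no member at 0 in all libraries. Of 6 tested visceral and parietal endoderm genes 3 rose and 0 fell, of 6 streak and mesoderm genes 3 rose and 3 fell, and of 2 neuroectoderm genes 1 fell. The part of feeder cells and of sorting in the peak changes was not tested, and in bulk samples fewer cells of a type and less open chromatin per cell cannot be told apart.

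The windows opened more often than they closed. Of the 300 peaks, 217 had enough counts to be tested with edgeR's quasi-likelihood test over all peaks, and 83 did not. At a Benjamini-Hochberg adjusted p under 0.05, 105 of the 217 rose in DE and 33 fell. Over the 113870 tested peaks of the table, 57.6% passed the test, 32.6% higher and 25.0% lower, whereas the windows had 63.6% passing, 48.4% higher and 15.2% lower. The median log2 change (DE over EpiSC) was 0.75 over the tested peaks of the windows and -0.01 over all tested peaks. Of the 105 rises, 100 were at least 2-fold, as were 25 of the 33 falls. In 99 tested peaks every DE library lay above every EpiSC library and in 28 every DE library lay below, against 53.8% of all tested peaks with no overlap in either direction. With libraries scaled by their total counts the split was 94 rises and 42 falls, and the median over all peaks was then -0.22 on the log2 scale against 0.54 in the windows.

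Each locus showed more rises than falls. Around Gata6, 28 of 52 tested peaks rose and 8 fell, with a median log2 change of 1.25. Around Foxa2, 31 of 67 rose and 11 fell (median 0.75). Around Cxcr4, 27 of 57 rose and 7 fell (median 0.54), and around Sox17, 19 of 41 rose and 7 fell (median 0.51). Peaks that rose went from a median of 1.61 CPM in EpiSCs to 10.7 CPM in DE, and peaks that fell went from 7.48 to 1.36 CPM. The peaks left untested were narrow and shallow, with a median width of 82 bp and a median of 1.10 CPM.

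Pooled over the 4 loci, the rises concentrated near the genes and faded to the level of the whole table at the edge of the windows. Within 10 kb of an anchor 13 of 20 tested peaks rose and 2 fell (9 of 16 and 2 without the 4 anchors), between 10 and 50 kb 16 of 26 rose and 1 fell, and between 50 and 100 kb 19 of 29 rose and 4 fell. Together, 48 of 75 tested peaks within 100 kb rose (64%) and 7 fell, and without the 4 anchors 44 of 71 rose. Between 100 and 250 kb 34 of 68 rose (50%) and 12 fell. Between 250 and 500 kb 23 of 74 rose (31.1%) and 14 fell (18.9%), a share of rises close to the 32.6% of all tested peaks. The median log2 change was 1.66 within 100 kb, 1.11 between 100 and 250 kb and 0.22 beyond that. Just outside the windows, from 500 to 1000 kb, 56 of 165 tested peaks rose (33.9%), 42 fell (25.5%) and the median was -0.12. By locus, the share of rises there was 20.6% at Sox17, 26.9% at Foxa2, 44.2% at Gata6 and 44.4% at Cxcr4. At Gata6 and Cxcr4 it was above their shares between 250 and 500 kb (18.8% and 31.2%). Inside the windows, the shares at these loci had fallen from 72.2% and 78.9% within 100 kb. At Foxa2 the share was 42.9% between 100 and 250 kb and 43.5% between 250 and 500 kb, above the 32.6% of all tested peaks. The fade to the level of the whole table was thus not seen at each locus. Across the 217 tested peaks, Spearman's correlation between log2 change and distance was -0.24, given as a description, since the peaks share the same 8 libraries and lie at only 4 loci. Peaks at gene starts were not set apart in the distance bins. Over all tested peaks, 13.6% of those at a listed promoter were higher in DE, against 34.8% of the others. The part of gene starts in the fade was not tested.

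**Figure D1:**
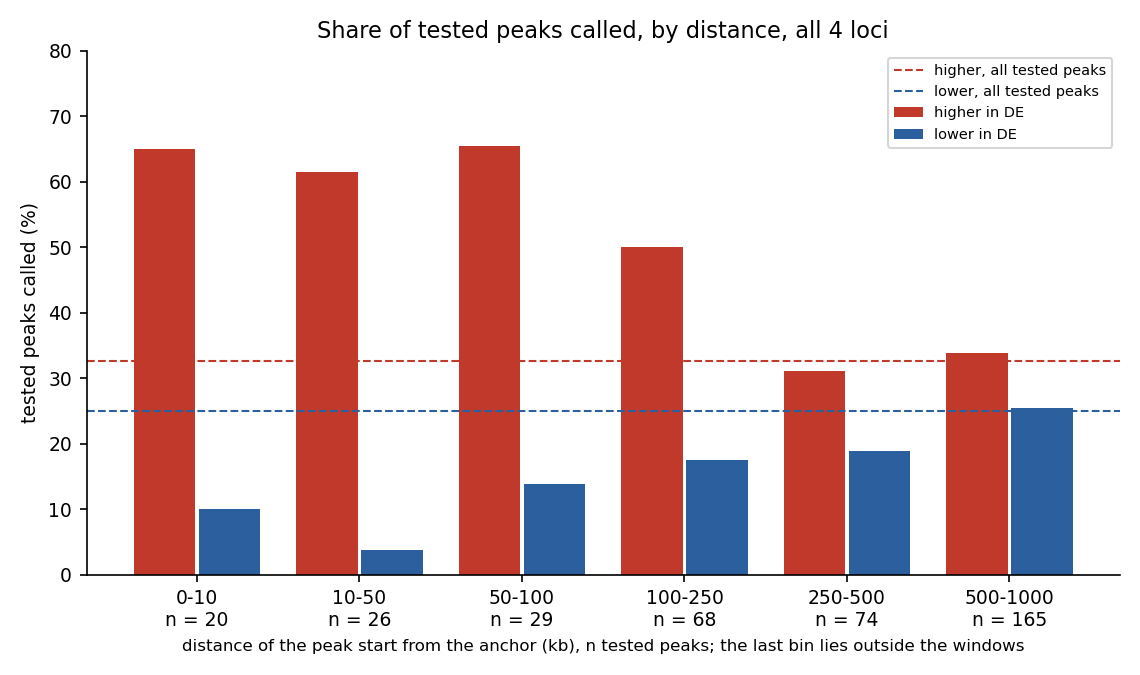
Percent of tested peaks that rose (red) or fell (blue) in DE against EpiSCs by distance of the peak start from the anchor in kb, over all 4 loci, with dashed lines for the same shares over all 113870 tested peaks. Rises make up 64% of tested peaks within 100 kb and 31.1% between 250 and 500 kb, next to 32.6% over all peaks.

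The loci gave different values by distance, and the difference between loci was not tested. Around Cxcr4, 15 of 19 tested peaks within 100 kb rose and 1 fell, against 12 of 38 rises farther out, and the correlation with distance was -0.36 over 57 peaks. Around Gata6, 13 of 18 rose and 1 fell within 100 kb, 12 of 18 rose between 100 and 250 kb and only 3 of 16 beyond 250 kb (correlation -0.33 over 52 peaks). Around Sox17, 5 of 8 tested peaks within 100 kb rose, 9 of 14 rose between 100 and 250 kb, and 5 of 19 beyond that (correlation -0.11 over 41 peaks). Around Foxa2, 15 of 30 tested peaks rose within 100 kb, 6 of 14 between 100 and 250 kb, and 10 of 23 beyond 250 kb, where 6 fell (correlation -0.11 over 67 peaks). The sole rise among 6 tested peaks within 10 kb of that anchor was the anchor itself, and of the other 5 none rose and 1 fell. By side, Sox17 had 13 rises and 1 fall among 25 tested peaks at higher coordinates and 5 rises and 6 falls among 15 at lower coordinates, where the gene Rp1, which encodes a photoreceptor protein, lies.

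**Figure D2:**
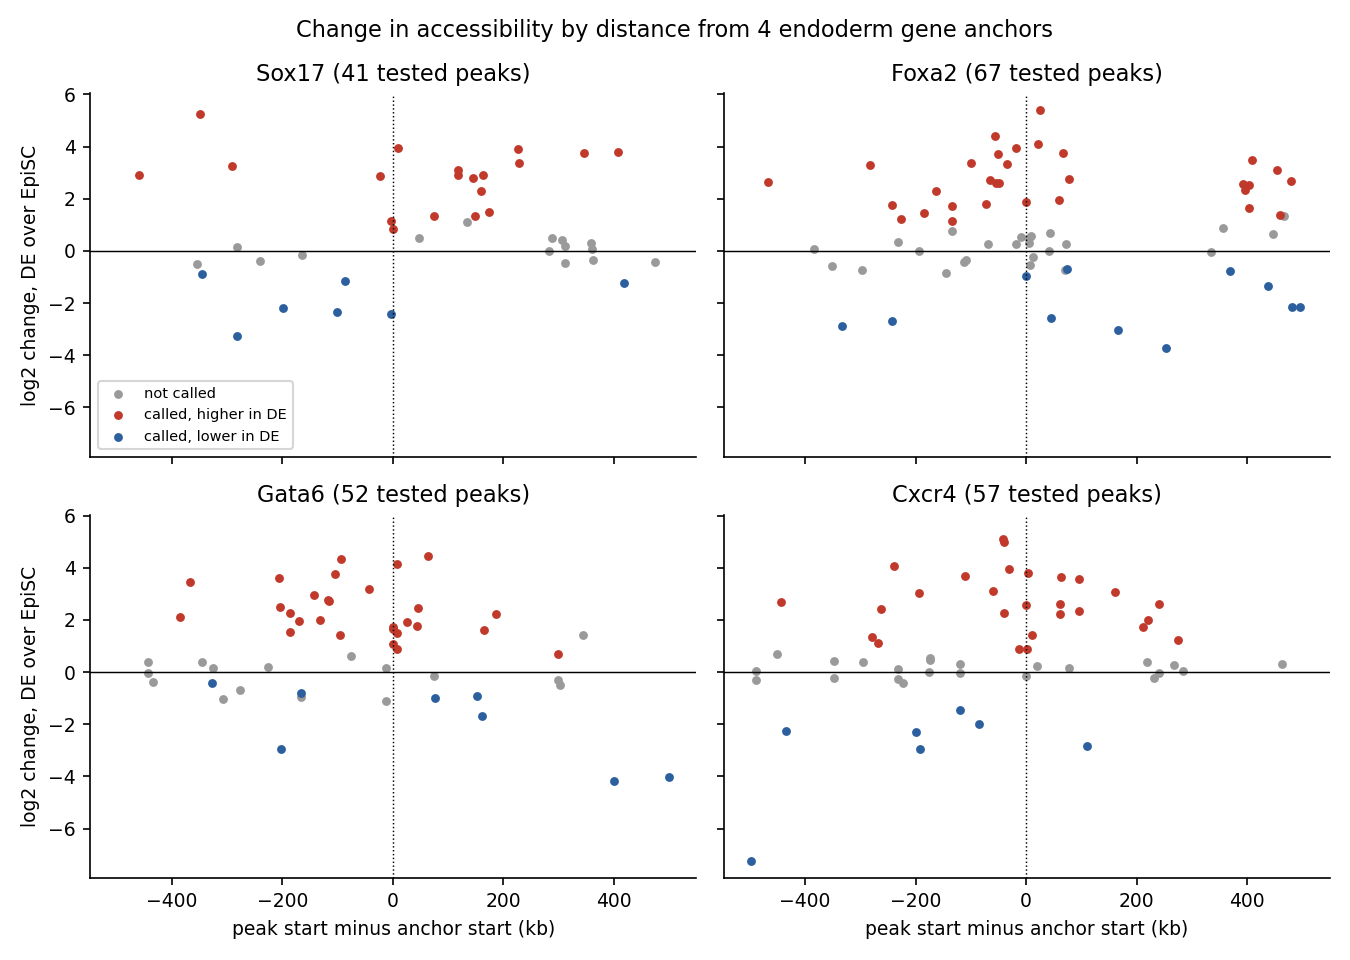
Log2 change in accessibility (DE over EpiSC) of each tested peak against the distance of its start from the anchor in kb, 1 panel per locus, with red for called higher, blue for called lower and grey for not called. Around Cxcr4 and Gata6 red points gather near the anchor, while around Foxa2 10 of 23 tested peaks beyond 250 kb are red.

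Summed over all peaks, tested or not, the windows held 2589 ± 104 CPM in DE and 1334 ± 108 CPM in EpiSCs (mean ± SD, n = 4 each), 1.94 times as much in DE. These sums and those within 100 kb include the anchor peaks. Within 100 kb of Cxcr4 the sum was 325, 320, 306 and 319 CPM in DE replicates 2, 4, 44 and 51. In EpiSC replicates 1, 4, 44 and 51 it was 82.2, 87.4, 56.6 and 55.9 CPM. The groups did not overlap, and the ratio of means was 4.5. The same ratio was 2.55 at Foxa2 (499 ± 9.98 against 196 ± 24.4 CPM), 2.3 at Sox17 (156 ± 10.7 against 67.7 ± 16.1) and 2.16 at Gata6 (191 ± 13.3 against 88.3 ± 6.88). Between 100 and 500 kb the ratios were 1.27 at Cxcr4, 1.64 at Foxa2, 1.75 at Sox17 and 1.65 at Gata6. Cxcr4 thus had the highest ratio of the 4 loci near the gene and the lowest farther out. Each of these 8 pairs of sums was free of overlap between DE and EpiSC libraries, and no test was made on sums. From 100 to 500 kb of Cxcr4 the groups nearly touched, with 298.4 CPM in DE replicate 51 and 297.6 CPM in EpiSC replicate 51.

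**Figure D3:**
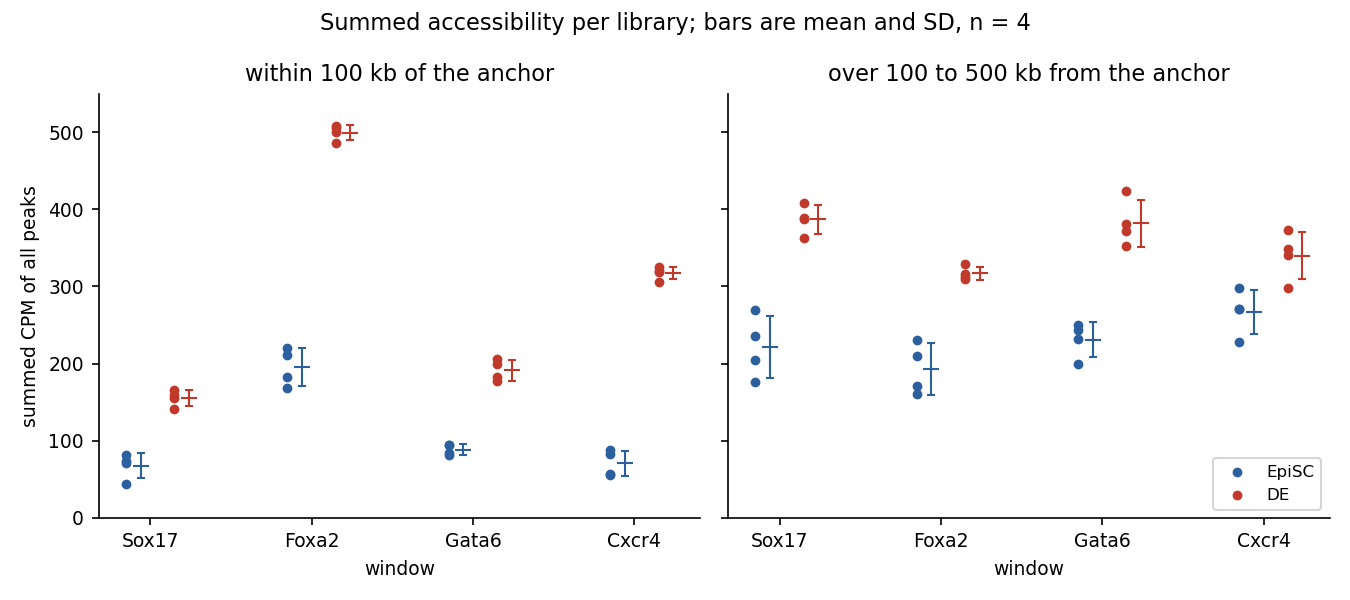
Summed CPM of all peaks within 100 kb of the anchor (left) and from 100 to 500 kb (right) in each of the 4 EpiSC (blue) and 4 DE (red) libraries, with mean and SD beside the points. Near Cxcr4 DE reaches 317 CPM against 70.6 CPM in EpiSCs, while from 100 to 500 kb it has 340 against 267 CPM.

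At Sox17, which encodes an HMG-box factor needed for definitive endoderm, the peaks inside the gene changed little or in opposite directions and the steepest rises lay outside it. The anchor peak (chr1:4496449-4496680), inside the gene, had 11.5, 12.2, 13.7 and 17.9 CPM in DE and 9.12, 8.71, 4.08 and 7.90 CPM in EpiSCs (log2 change 0.85, SE 0.26). With total library sizes as scaling the anchor did not pass the test (0.63). The strongest peak in the gene, chr1:4493360-4493810, had 45.7 ± 5.22 CPM in DE and 20.3 ± 6.03 in EpiSCs and rose by 1.15 in log2 units (SE 0.19), with an edgeR adjusted p of 2.13e-05. The next peak toward lower coordinates, chr1:4492955-4493123, also inside Sox17, fell by 2.42 in log2 units (SE 0.32), with an edgeR adjusted p of 2.05e-06. It had 1.85, 3.29, 1.43 and 2.31 CPM in DE against 11.04, 10.4, 11.2 and 14.9 in EpiSCs, so that 2 neighbouring peaks of 1 gene moved in opposite directions without overlap between groups.

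The first large rise at Sox17 lay 10.3 kb from the anchor, outside the gene, at chr1:4506734-4507067. It had 38.3, 40.0, 43.8 and 31.4 CPM in DE and 1.28, 5.41, 1.53 and 0.62 CPM in EpiSCs, which is a change of 3.94 in log2 units (SE 0.39) with an edgeR adjusted p of 3.79e-07. All 4 DE libraries lay far above the EpiSC libraries, of which replicate 4 was the highest. A group 226 to 228 kb away, between genes and nearest to the predicted gene Gm2053, held the most accessible rising peak of the 4 loci. That peak, chr1:4724910-4725477, had 89.1, 84.6, 90.3 and 79.3 CPM in DE and 6.08, 14.9, 6.12 and 4.96 CPM in EpiSCs (change of 3.35 in log2 units, SE 0.26, with an edgeR adjusted p of 2.11e-08). Its neighbour chr1:4722723-4722925 rose by 3.92 on the log2 scale (SE 0.31). These peaks end the longest run of rises in the window, 7 tested peaks in a row from 144.7 to 228.5 kb, picked because all rose. Together these 7 had 144 ± 7.56 CPM in DE against 18.4 ± 9.07 in EpiSCs. Within Rp1, 291 kb to the other side, chr1:4205626-4205849 rose by 3.26 (SE 0.42) from 0.89 to 9.15 CPM.

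Falls at Sox17 were fewer. Besides the peak inside the gene, chr1:4297125-4297364 in Rp1 fell by 2.19 on the log2 scale (SE 0.32), from 11.4 ± 2.98 to 2.58 ± 0.79 CPM. Peak chr1:4914529-4914823 in Rgs20, a regulator of G-protein signalling, fell by 1.22 (SE 0.26), from 13.0 ± 2.51 to 5.52 ± 1.15 CPM. The most accessible tested peak of the window, chr1:4857452-4857827 in the transcription elongation factor gene Tcea1, had 48.7 ± 3.49 CPM in DE and 46.0 ± 9.00 in EpiSCs and did not pass the test (change of 0.08 in log2 units, SE 0.14, with an edgeR adjusted p of 0.656).

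At Foxa2, which encodes a forkhead pioneer factor, the gene's own peaks did not pass the test and the rises surrounded it. The peak at the listed Foxa2 start, chr2:148046093-148046181, had 4.99 ± 2.53 CPM in DE and 3.33 ± 1.63 in EpiSCs (log2 change 0.49, SE 0.43). The larger peak inside the gene, chr2:148046316-148046567, had 36.8, 29.5, 28.6 and 34.3 CPM in DE and 27.4, 26.7, 21.9 and 28.8 CPM in EpiSCs. These values overlap, and the log2 change of 0.29 (SE 0.16) had an edgeR adjusted p of 0.115, so this peak was already open in EpiSCs. Just beyond the gene, chr2:148048541-148048699 had a log2 change of -0.56 (SE 0.24) and chr2:148048890-148048984 one of 0.55 (SE 0.31). Neither passed the test, although the first passed as lower in 11 of 17 alternatives, DESeq2 (-0.61) among them. The anchor peak, chr2:148040694-148041065, at the start of 9030622O22Rik, had 42.2, 30.1, 40.7 and 39.8 CPM in DE and 9.60, 12.1, 7.40 and 11.5 CPM in EpiSCs (log2 change 1.88, SE 0.19). A small peak on the other side of that start, chr2:148039524-148039679, fell by 0.97 (SE 0.37), with an edgeR adjusted p of 0.0299 and overlap between the groups, and lost its call without DE replicate 44 (-0.87).

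The body of 9030622O22Rik opened over a long span. The longest run of rises in the window, picked because all rose, held 6 tested peaks in a row from 65.5 to 35.4 kb below the anchor. They rose by 2.59 to 4.4 on the log2 scale and together had 116 ± 5.80 CPM in DE against 9.99 ± 4.75 in EpiSCs. This stretch holds the inner start printed above, whose peak went from 0.96 to 5.86 CPM, and chr2:147984740-147984938, which rose by 4.4 (SE 0.41) from 0.67 to 15.0 CPM. The most accessible peak of the window, chr2:147968631-147969020 in the same gene, had 68.1, 72.7, 66.7 and 59.1 CPM in DE against 19.03, 20.0, 19.1 and 18.3 in EpiSCs (change of 1.80 in log2 units, SE 0.13, with an edgeR adjusted p of 1.69e-09). Nearer the anchor, chr2:148023213-148023448 rose by 3.93 (SE 0.49) from 0.87 to 11.8 CPM.

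On the other side of Foxa2, 25.1 kb from the anchor, lay the steepest rise among the named peaks. Peak chr2:148065830-148066269, between genes and nearest to the predicted gene Gm14108, had 32.7, 28.0, 28.5 and 26.2 CPM in DE and 0, 1.20, 1.02 and 0.31 CPM in EpiSCs. The log2 change was 5.40 (SE 0.38, edgeR adjusted p = 9.41e-10), and EpiSC replicate 1 had no count there. Some 67 kb away, chr2:148107552-148107785 rose by 3.75 (SE 0.44). Between these, chr2:148084787-148085086 fell by 2.59 (SE 0.45), from 4.80, 11.02, 4.85 and 11.1 CPM in EpiSCs to 0.82, 2.30, 0.57 and 1.73 in DE. Farther out, chr2:148206643-148206866 fell by 3.02 (SE 0.48) from 8.45 ± 3.56 to 0.96 ± 0.64 CPM. At 481 kb, chr2:148521960-148522494 in the predicted gene Gm46770 fell by 2.15 (SE 0.32) from 18.1 ± 5.10 to 3.89 ± 2.01 CPM.

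At Gata6, which encodes a zinc-finger factor of endoderm and heart, peaks inside the gene rose. Apart from the anchor, 5 of 5 tested peaks within 10 kb and 6 of 6 inside the gene passed the test as higher, of which the small ones named below did not do so in every setting. The anchor peak, chr18:11052262-11052687, at Gata6 and its antisense gene Gata6os, was also the most accessible of the window. It had 41.8, 49.5, 53.1 and 56.2 CPM in DE and 25.3, 25.6, 20.4 and 23.7 CPM in EpiSCs (log2 change 1.07, SE 0.15), and was thus open in both states. Peak chr18:11052824-11052956 rose by 1.74 (SE 0.34) and chr18:11053230-11053318 by 1.66 (SE 0.48), the latter with overlap between the groups and without a call when DE replicate 4 was left out (1.30). Deeper in the gene, chr18:11060233-11060447 rose by 4.16 (SE 0.53, edgeR adjusted p = 1.34e-06), from 0.32, 0.40, 0 and 0.77 CPM in EpiSCs to 8.03, 5.10, 5.44 and 12.7 in DE. The small peaks chr18:11059136-11059210 (log2 change 1.48, SE 0.59) and chr18:11059695-11059836 (0.87, SE 0.32) passed the test but lost it with total library sizes as scaling (1.26 and 0.65) and when single libraries were left out.

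The gene lies in the longest run of rises in the window, 10 tested peaks in a row from the anchor to 63.7 kb, picked because all rose. Together they had 117 ± 9.49 CPM in DE against 39.4 ± 3.53 in EpiSCs. The count and both sums include the anchor, the most accessible peak of the window, which was picked from these libraries. The last peak of the stretch, chr18:11115959-11116325, rose by 4.46 (SE 0.48) from 0.39 to 10.7 CPM. Past a tested peak that was not called, chr18:11129552-11129869 fell by 0.98 (SE 0.23), from 14.7, 15.1, 17.9 and 13.9 CPM in EpiSCs to 8.03, 8.72, 8.16 and 5.77 in DE. It began the longest run of falls in the window, 3 tested peaks in a row from 77.3 to 161.9 kb, picked in the same way. Together these 3 had 11.8 ± 2.45 CPM in DE against 24.85 ± 4.06 in EpiSCs. On the lower side, the predicted gene Gm35814 held 2 wide peaks that rose. Peak chr18:10909045-10909512 had 33.3, 34.7, 41.1 and 36.3 CPM in DE and 5.12, 7.51, 4.08 and 1.24 CPM in EpiSCs (log2 change 2.96, SE 0.30), and chr18:10935771-10936201 rose by 2.77 (SE 0.31) from 3.53 to 25.1 CPM. Peak chr18:11009343-11009609, near 9130001E16Rik, rose by 3.20 (SE 0.43). Beyond them, chr18:10850911-10851233 fell by 2.97 (SE 0.48) from 9.60 ± 3.37 to 1.20 ± 0.81 CPM, and chr18:10885873-10886039 fell by 0.81 (SE 0.27) from 10.9 ± 1.48 to 6.23 ± 1.73 CPM.

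At Cxcr4, the gene on whose protein the DE cells were sorted, an open peak next to the start did not pass the test while peaks on either side rose. The peak just before the start, chr1:128592516-128592696, whose edge is printed above, had 9.67, 11.2, 12.6 and 10.95 CPM in DE and 15.8, 8.91, 10.7 and 13.8 CPM in EpiSCs (change of -0.14 in log2 units, SE 0.24, with an edgeR adjusted p of 0.631). The anchor peak, chr1:128592188-128592280, inside the gene, had 6.79, 9.05, 9.73 and 6.34 CPM in DE and 1.76, 1.80, 0.51 and 0.93 CPM in EpiSCs (log2 change 2.58, SE 0.39). Upstream, chr1:128593244-128593500 rose by 0.89 (SE 0.22), chr1:128595527-128595706 by 3.80 (SE 0.41) and chr1:128602130-128602323 by 1.42 (SE 0.28). The middle one of these had 15.0, 14.8, 13.9 and 12.4 CPM in DE and 0.96, 1.80, 0 and 0.62 CPM in EpiSCs.

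Past the other end of Cxcr4, 59.5 kb from the anchor, began the longest run of rises in the window, 7 tested peaks picked because all rose. It ended with the anchor peak inside the gene. With the anchor, which was picked from these libraries, the run had 126 ± 5.50 CPM in DE against 13.9 ± 4.49 in EpiSCs. The strongest, chr1:128561632-128562118, had 62.6, 59.1, 56.2 and 54.8 CPM in DE and 3.36, 5.81, 3.32 and 1.70 CPM in EpiSCs. Its log2 change was 3.97 (SE 0.24), with an edgeR adjusted p of 1.57e-10. Near the predicted gene Gm41950, chr1:128549861-128550072 rose by 5.10 (SE 0.45) from 0.26 to 10.8 CPM, and chr1:128552136-128552357 rose by 5.0 (SE 0.56) from 0.40 to 12.9 CPM. A group of 3 peaks at 60.8, 61.9 and 62.4 kb on the upstream side, chosen after its values were seen, rose by 2.22, 2.62 and 3.66 on the log2 scale. The sole fall of the window that met the rule for named peaks was chr1:128392388-128392751 in Dars, an aspartyl-tRNA synthetase gene, which fell by 2.31 (SE 0.41). EpiSC replicate 51 had 17.7 CPM there and the other EpiSC libraries 5.31 to 7.65, against 1.24 to 2.59 in DE.

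At the far edge of the Cxcr4 window, peak chr1:128094816-128094922 in Zranb3, a gene of replication fork repair, had no count in any DE library and 14, 26, 12 and 31 counts in the EpiSC libraries. It was at least 22.2-fold lower in DE (floor of 3 counts over the group), and it was the sole tested peak with 0 counts in a whole group. The most accessible peak of the window was the shared start of R3hdm1 and Zranb3, chr1:128103013-128103458. It had 44.3 ± 4.41 CPM in DE and 43.1 ± 11.4 in EpiSCs (change of 0.04 in log2 units, SE 0.16, with an edgeR adjusted p of 0.853).

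**Figure D4:**
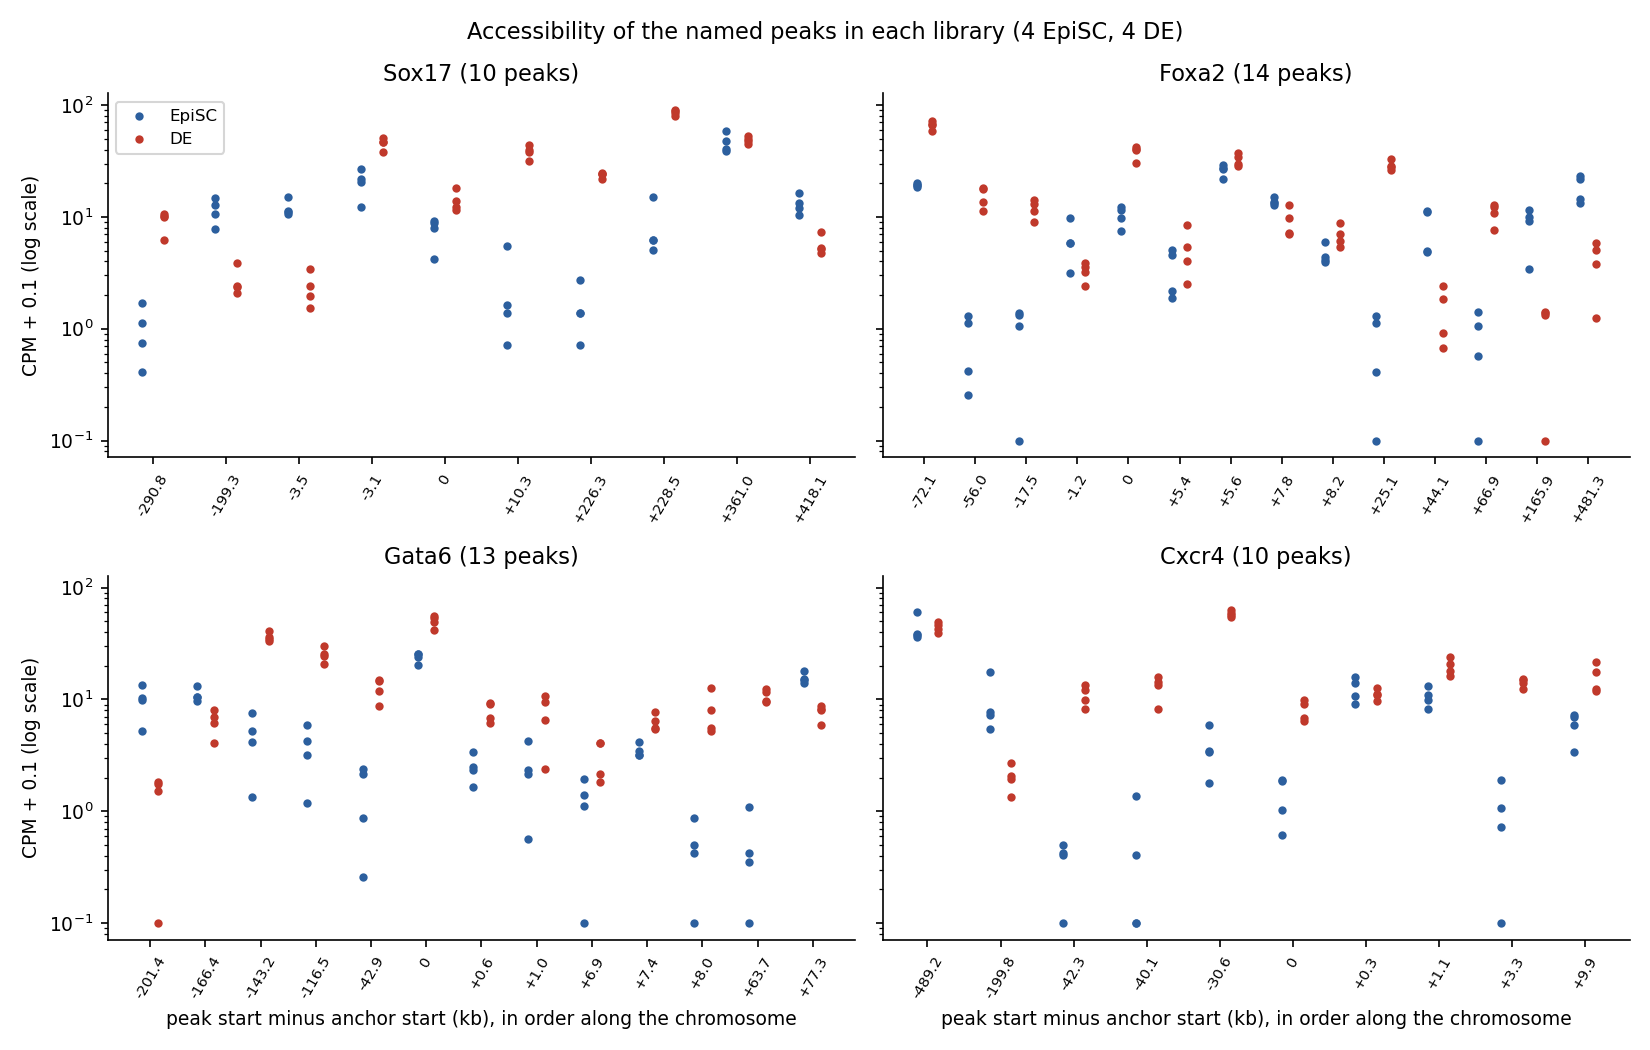
CPM + 0.1 on a log axis of the 47 named peaks in each of the 4 EpiSC (blue) and 4 DE (red) libraries, ordered along the chromosome and labelled by distance from the anchor in kb. In the peak 25.1 kb from the Foxa2 anchor DE reads 26.2 to 32.7 CPM and EpiSCs 0 to 1.20 CPM, whereas at the Tcea1 peak (361.0 kb from the Sox17 anchor) the groups overlap.

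Of 12 tested peaks of the windows that overlap a listed promoter, 3 rose (25.0%), 0 fell and 9 did not pass the test (edgeR at an adjusted p under 0.05). That share is close to the 26.9% of all tested promoter peaks of the table that passed. Of the 3 rises 2 were anchors, and without the anchors 1 of 10 rose. Those that rose were the Cxcr4 anchor, the Foxa2 anchor at the first start of 9030622O22Rik and the peak at its inner start, and those that did not were at Foxa2, Cxcr4, Zranb3, R3hdm1, Ubxn4, Gm41949, Mcm6 and Dars. All 12 lie in the Foxa2 window (3) or the Cxcr4 window (9), with 0 in those of Sox17 and Gata6. Of the 205 other tested peaks, 102 rose and 33 fell. Any peak at a gene start that the list lacks counts among these 205, so they are not a set away from promoters. Over all peaks, 13.6% of 11757 tested promoter peaks were higher and 13.3% lower, against 34.8% and 26.4% of the 102113 others. Inside genes 40 of 91 tested peaks of the windows rose and 15 fell, and between genes 65 of 126 rose and 18 fell. Among 52 pairs of tested peaks within 2 kb of each other, both passed the test in 25, with both higher in 19, both lower in 0 and opposite directions in 6. Opposite pairs made up 24.0% of such pairs in the windows and 29.5% over the table. This pairing was looked at after the values were seen.

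The RNA of all 4 genes rose in DE. Sox17 had 1462, 1128, 1369 and 1244 CPM in DE replicates 2, 4, 44 and 51, and 8.88, 1.33, 8.73, 9.52 and 0.63 CPM in EpiSC replicates 1, 2, 4, 44 and 51 (change of 7.80 in log2 units, SE 0.80, with an edgeR adjusted p of 1.91e-05). Gata6 had 334, 416, 522 and 330.0 CPM in DE and 15.5, 2.40, 12.6, 11.5 and 1.26 CPM in EpiSCs (log2 change 5.53, SE 0.68). Cxcr4 had 72.6, 81.2, 61.2 and 76.3 CPM in DE and 28.6, 2.51, 21.4, 13.6 and 3.03 CPM in EpiSCs (log2 change 2.40, SE 0.63), with the sort acting on its protein. Foxa2 had 123, 95.5, 78.7 and 107 CPM in DE and 48.6, 38.1, 39.6, 39.5 and 16.6 CPM in EpiSCs (log2 change 1.47, SE 0.27), the smallest of the 4 RNA changes. No gene had overlap between groups, and EpiSC replicates 2 and 51 were the lowest for Sox17, Gata6 and Cxcr4. The order of the RNA changes (Sox17, Gata6, Cxcr4, Foxa2) was not that of the summed peaks within 100 kb, where Cxcr4 had the highest ratio.

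The other genes of the windows moved both ways. Of 34 genes in the RNA table that lie in the windows, 23 were tested, of which 11 rose and 6 fell, while over all 14085 tested genes 31.5% were higher and 30.6% lower. Without the 4 endoderm genes, 7 of 19 rose and 6 fell. Mib1, an E3 ligase of Notch signalling in the Gata6 window, fell by 1.73 on the log2 scale (SE 0.15, from 185 ± 22.7 to 55.8 ± 7.13 CPM). In the Cxcr4 window R3hdm1 fell by 1.38 (SE 0.17, from 109 ± 9.22 to 42.0 ± 10.1 CPM) and Zranb3 by 1.06 (SE 0.16), although their shared start peak did not pass the test. Dars, in the same window, rose by 1.16 (SE 0.10, from 183 ± 9.99 to 408 ± 13.9 CPM). In the Sox17 window Lypla1, an acyl-protein thioesterase gene, rose by 1.29 (SE 0.19) and Mrpl15, a mitochondrial ribosomal protein gene, by 0.58 (SE 0.20, edgeR adjusted p = 0.028). Mrpl15 lost its call in 10 of 20 alternatives, among them both replicate blocks and 5 single libraries left out, with log2 changes of 0.33 to 0.70. Tcea1, whose peak is the most accessible of that window, had 178 ± 14.5 CPM in DE and 192 ± 3.90 in EpiSCs (change of -0.11 in log2 units, SE 0.11, with an edgeR adjusted p of 0.378). Rgs20 is a low gene whose RNA fell by 2.11 (SE 0.50), from 1.47 to 0.34 CPM, beside 1 peak in the gene that fell and 0 that rose.

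**Figure D5:**
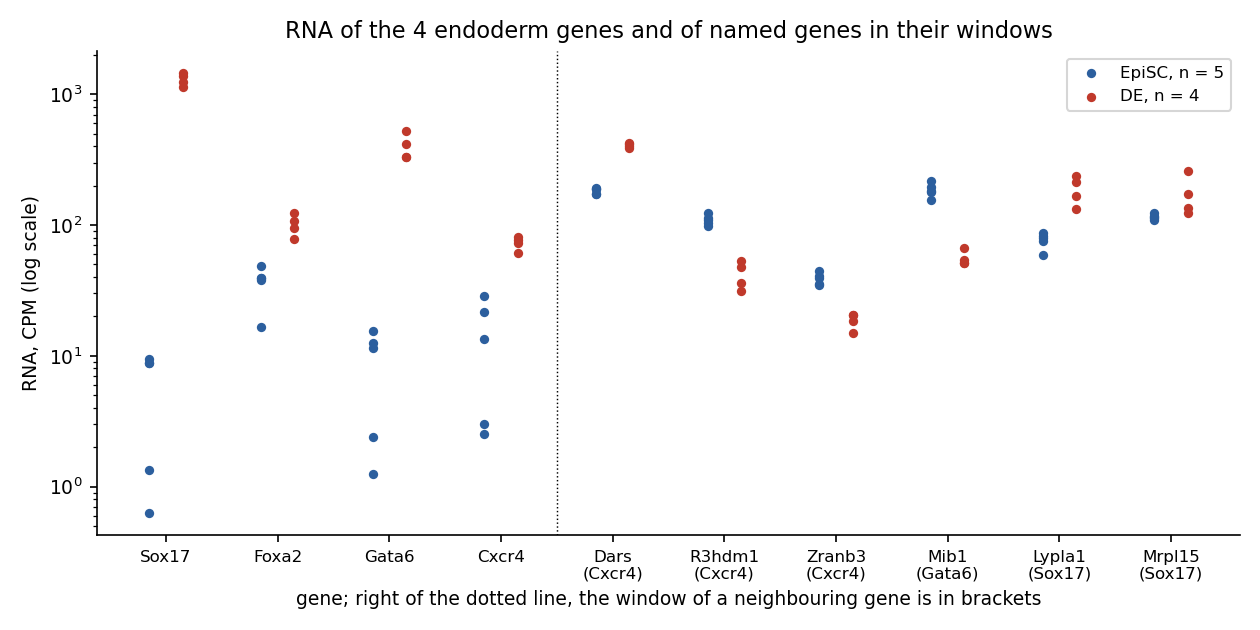
RNA in CPM on a log axis of Sox17, Foxa2, Gata6 and Cxcr4 and of the named genes in their windows, with 5 EpiSC (blue) and 4 DE (red) libraries each. Sox17 reaches 1128 to 1462 CPM in DE against 0.63 to 9.52 CPM in EpiSCs, while Mib1, R3hdm1 and Zranb3 are lower in DE.

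Few peaks of these windows passed the test between strains of EpiSCs, as was so for the peak table as a whole. In a separate deposited peak table of EpiSCs, 314 peaks lie in the same windows, and 217 of them were tested between 2 PWK and 4 B6 libraries. With edgeR's quasi-likelihood test 0 were higher in PWK and 8 were lower (3.69%). Of all 137667 tested peaks 5.11% passed (1.42% higher, 3.68% lower), so the share of lower peaks was that of the whole table. At an unadjusted p under 0.05, 7 were higher and 21 lower, and DESeq2 called 0 higher and 9 lower. The anchors of Sox17, Foxa2 and Gata6 have an overlapping peak there, and their log2 differences (PWK over B6) of -0.15 (SE 0.34), -0.14 (SE 0.34) and -0.17 (SE 0.21) did not pass the test. For Cxcr4 the peak just before the start had 12.6 and 12.1 CPM in PWK and 9.47 to 16.2 CPM in B6 (-0.03, SE 0.27), which did not pass the test either. Of the 8 lower peaks, 4 were around Sox17, 2 around Gata6, 2 around Cxcr4 and 0 around Foxa2. Of these, 3 overlap peaks described above that fell in DE, among 32 tested of that kind, and 5 overlap peaks not called in DE. Of 49 tested at peaks that rose in DE, 0 passed. At the Rgs20 peak PWK had 3.96 and 5.12 CPM and B6 11.2 to 16.4 CPM (log2 difference -1.52, SE 0.31, edgeR adjusted p = 0.0092). The Dars peak had 1.08 and 1.14 CPM in PWK and 5.64 to 17.6 CPM in B6 (-3.08, SE 0.56). Peak chr18:11129583-11129869, 77.3 kb from the Gata6 anchor, had 6.48 and 5.58 CPM in PWK and 13.3 to 17.95 CPM in B6 (-1.36, SE 0.27). The largest difference among the 8 was in Rp1 at chr1:4255761-4255899, with 0.36 and 0 CPM in PWK against 1.54 to 4.33 in B6 (-4.15, SE 1.00). That peak lost its call in 4 of 12 alternatives, without B6 replicate 1, 4 or 51 and without the unnumbered PWK library (-2.96, edgeR adjusted p = 0.137). Outside but nearest to Lypla1, the peak at chr1:4802594-4802856 had 7.92 and 4.10 CPM against 16.2 to 33.1 (-2.01, SE 0.34). This comparison and that of DE share the B6 EpiSC cultures, so their values are given side by side and are no support for each other. The single DBA library, which cannot be tested, had 11.8 CPM at the Rgs20 peak and 25.6 CPM at the peak nearest to Lypla1, both within the range of the B6 libraries.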

How the data were processed

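Chromatin accessibility (ATAC-seq) and RNA were measured in cultured mouse cells. Per the submitters' processing notes, fastp, Bowtie2, MACS2, featureCounts and DESeq2 were used for ATAC-seq and Salmon, featureCounts and DESeq2 for RNA, with the build mm10 and with roles and versions not given in the sources used here. The authors deposited raw counts per peak, over 1 set of peaks for all libraries of a table, and raw counts per gene. The EpiSC peak table also holds 17 columns of no sample given here, which were not used. Its 1 PWK column without a replicate number was placed by its strain.

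The members and lists were chosen with earlier results of these data known. Each whole table was fitted with edgeR 4.0.16 in R 4.3.3 (TMM scaling, filterByExpr, robust quasi-likelihood test, Benjamini-Hochberg adjustment), with calls at an adjusted p under 0.05. The B6 fit used 4 EpiSC and 4 DE libraries, and the RNA fit 5 and 4. CPM use the library size times its TMM factor, and fold changes and their standard errors are on the log2 scale. Distances run from peak start to anchor start. Genes in windows came from RefSeq (GRCm38.p6), in which 26489 of 29555 gene identifiers had a position. Use of strand in counting is not given in the sources used here, so antisense partners such as Gata6 and Gata6os cannot be told apart. Nothing says that replicates came from separate mice, so p-values measure the spread between these samples. Pairs of replicates differed by more than sampling noise (chi-square per feature of at least 2.77 in ATAC-seq).

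The peaks named are the 4 anchors, the tested peaks within 10 kb of an anchor, per window the 4 largest rises and 3 largest falls among called peaks without overlap between groups and with at least the median accessibility, and the most accessible tested peak. The genes named are the 4 endoderm genes and per window up to 3 other called genes with the largest change and a mean log2 CPM of at least 3. Any other was chosen after its values were seen. Each run of tested peaks in a row is the longest of its window and direction. That all its peaks changed the same way, and the gap between its sums, follow from that choice. The longest runs of falls held from 1 peak (Cxcr4) to 3 peaks (Gata6). Alternatives were the scaling, the filter on low counts, DESeq2 1.42.0, a fold of at least 2, autosomes only, each library left out, the replicate number as a block, and windows of 100, 250 and 1000 kb. The fits were tested on simulated data.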

Additional observations from a re-analysis of the deposited data

Results flagged for a closer look

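Of 122 groups of libraries examined, 4 had 1 library far from the others, where about 1 in 20 groups would be picked by chance. At the peak 228.5 kb from the Sox17 anchor, EpiSC replicate 4 had 14.9 CPM and the other EpiSC libraries 4.96 to 6.12. At the Foxa2 peak chr2:148206643-148206866, DE replicate 51 had 0 CPM and the other DE libraries 1.24 to 1.32. At the shared start of R3hdm1 and Zranb3, EpiSC replicate 51 had 60.1 CPM and the others 35.9 to 38.8. In the summed Cxcr4 window, EpiSC replicate 44 had 284 CPM and the others 353 to 358.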

How the results depend on the processing

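No peak of the windows turned from higher to lower under any setting fitted. With at least 10 counts in every library 81 peaks were tested, of which 31 rose and 11 fell, since fewer peaks pass that filter, and with no filter 54 fell. By window size, 48 rose and 7 fell within 100 kb, 19 fell within 250 kb, and 161 rose and 75 fell within 1000 kb. Leaving out 1 library at a time gave 96 to 115 rises and 33 to 43 falls. Over 16 other settings the share of rises was 55.6% to 64.1% within 100 kb and 4.17% to 31.1% between 250 and 500 kb. The replicate block over replicates 4, 44 and 51 gave 99 rises and 26 falls, and the same libraries without the block 101 and 30. Same-numbered libraries correlated at 0.05, -0.01 and 0.03 in ATAC, and in RNA at 0.15, 0.09, 0.21 and 0.20 (replicates 2, 4, 44 and 51). In neither assay was every value over 0.1, so the numbers were not taken as pairs. In RNA each of these 4 EpiSC libraries correlated best with its own number, a hint from the data and not the design, although DE replicate 4 correlated best with EpiSC replicate 1 (0.12). In RNA the replicate block over replicates 4, 44 and 51 left 11 rises and 6 falls, and over replicates 2, 4, 44 and 51, added after seeing the data, it gave 12 and 6. With at least 10 counts in every library 3 genes and, in PWK against B6, 3 peaks fell. Leaving out 1 library gave 10 to 11 rising and 6 to 7 falling genes, and 0 to 2 higher and 4 to 12 lower peaks in PWK. The uncalled peaks at Tcea1 and at R3hdm1 and Zranb3 changed sign, to -0.13 and -0.17 on the log2 scale with total library sizes, and Tcea1 went to -0.0793 with replicates 4, 44 and 51 alone. Leaving out 1 library moved Tcea1 between -0.0841 and 0.0842 and the other peak between -0.1254 and 0.034. The cause of these shifts was not tested. Depth left 83 peaks of the windows untested.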

Other observations

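Among the 105 peaks of the windows that rose in DE, EpiSC replicate 4 was the highest EpiSC library at 60, replicate 1 at 19, replicate 44 at 18 and replicate 51 at 8. Their summed accessibility was 470 CPM in replicate 4, 366 in replicate 1, 307 in replicate 44 and 297 in replicate 51. Over all 37108 peaks of the table that rose, replicate 4 was the highest at 45.9%, against 57.1% in the windows. Replicate 51 was the highest at 12.8% of them, against 7.62% in the windows. In RNA, where replicate numbers were not shown to pair with those of ATAC-seq, EpiSC replicate 51 had the lowest Sox17 (0.63 CPM), Foxa2 (16.6 CPM) and Gata6 (1.26 CPM). That library also had the highest sum over the feeder fibroblast genes (2448 CPM, against 57.8 to 1017 in the other EpiSC libraries), with Col1a1 at 728 CPM against 8.00 to 292 and Thy1 at 109 CPM against 7.97 to 44.2, whose part in the low values was not tested. Without EpiSC replicate 4, 115 peaks of the windows rose and 36 fell. Among the 33 peaks that fell, the highest DE library was replicate 2 at 11, replicate 51 at 9, replicate 4 at 8 and replicate 44 at 5.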
